A study of Arabidopsis thaliana with 12 samples.

Results

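ATAB2 (AT3G08010) and AT3G29185 are nuclear genes of Arabidopsis thaliana, described here in wild-type plants and in a mutant of the thylakoid electron carrier plastocyanin. Both were chosen on their values in these samples, as genes for plastid translation and thylakoid assembly that an earlier fit of the same contrast had placed higher in the mutant. They are 2 of the 692 probes that the platform annotation assigns to a single gene, among 3439 probes in all. Each has 1 such probe, and no probe assigned to several genes names either of them. Total RNA was hybridised to expression arrays in 12 samples, 6 of the wild type (WT) and 6 of the pete1 mutant, numbered 1 to 6 in each. Both genotypes were of ecotype Columbia 0 and were raised on MS medium, a common plant culture medium, and the mutant lacks 1 of the plastocyanin isoforms. Treatment, age and tissue are not given in the labels, nor whether the samples came from separate plants, so the spread between samples may be technical.

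The thylakoid complexes of the chloroplast are built from subunits made in the cytosol and subunits made on plastid ribosomes, and nuclear proteins control both the translation of plastid messages and the assembly of their products. ATAB2 is an RNA-binding protein of the chloroplast that is needed for the accumulation of photosystem I and photosystem II; its relative in the green alga Chlamydomonas, Tab2, acts in the translation of the message for a photosystem I reaction-centre protein. AT3G29185 has no symbol in the gene table used here and was grouped with ATAB2 as a nuclear factor for the assembly of thylakoid complexes. Plastocyanin itself carries electrons from the cytochrome complex to photosystem I.

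Values are given on 2 scales. The first is the intensity as the authors deposited it, a linear value whose mean lay between 0.917 and 1.07 in every sample and of which no label states the background correction. The second is the percentile rank, the position of a probe among the 3439 probes of its own sample, from 0 for the dimmest to 100 for the brightest. The scales were kept apart because the samples differed in their distribution. The median intensity lay between 0.485 and 0.627 in WT and between 0.279 and 0.331 in pete1, and 170 to 206 probes of a WT sample were listed at 0 against 244 to 293 of a pete1 sample. A given intensity therefore took a higher rank in pete1 over most of the range. Samples with consecutive numbers in a genotype, that is 1 and 2, 3 and 4, and 5 and 6, were closer to each other, with Spearman correlations of 0.955 to 0.980 over all probes, than to the other samples of that genotype, at 0.849 to 0.901, and values are set out by these couples below. PETE1 transcripts were not analysed here, and no check of the labels by the mutated gene was made. Because the members were chosen with this contrast known, no test was made of their difference between genotypes.

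ATAB2 was dim in WT and had a higher rank in every pete1 sample, while its mean intensity was lower in pete1. In WT samples 1 and 2 its intensity was 0.168 and 0.160, in samples 3 and 4 it was 0.0971 and 0.0975, and in samples 5 and 6 it was 0.194 and 0.191. In pete1 samples 1 and 2 it was 0.0762 and 0.191, in samples 3 and 4 it was 0.0909 and 0.0952, and in samples 5 and 6 it was 0.152 and 0.161. Samples 5 and 6 were thus brighter than samples 3 and 4 in both genotypes, and the ranges of the genotypes overlapped. Its mean over 6 samples was 0.151 ± 0.0438 (SD) in WT and 0.128 ± 0.0466 in pete1, a log2 ratio of -0.24 that was smaller than the spread between samples of a genotype. Of the 6 sample numbers, 5 had the lower intensity in pete1, and number 2 had the higher. In RNA from whole samples, fewer cells that express a gene and less of its RNA per cell cannot be told apart.

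**Figure D1:**
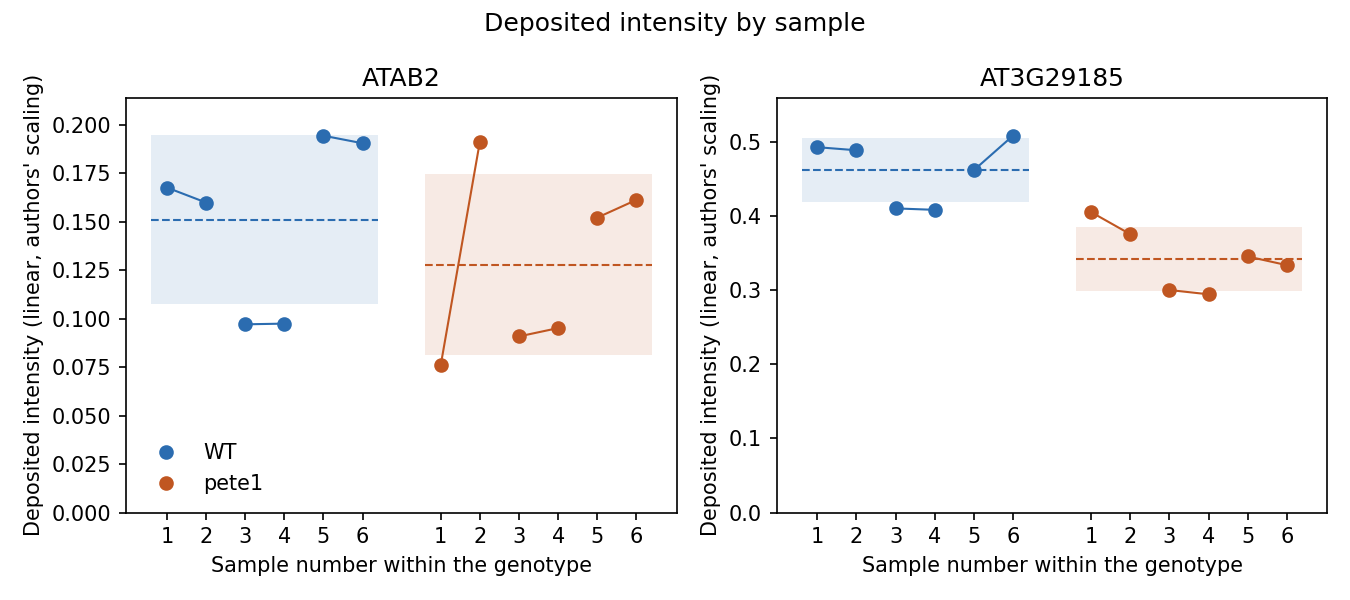
Deposited intensity (linear, vertical axes from 0) of ATAB2 and AT3G29185 in the 6 WT and 6 pete1 samples. Points are samples, lines join consecutive numbers of a genotype, dashed lines are means and bands are ± 1 SD. ATAB2 overlaps between genotypes, whereas every pete1 value of AT3G29185, up to 0.405, lies below every WT value, from 0.409.

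On the rank scale ATAB2 stood at the 12.8th and 12.3rd percentile in WT 1 and 2, at 10.6 and 11.0 in WT 3 and 4, and at 16.8 and 17.4 in WT 5 and 6. In pete1 its percentile rank was 17.4 and 36.5 in samples 1 and 2, 18.9 and 19.8 in samples 3 and 4, and 26.0 and 27.6 in samples 5 and 6. All pete1 samples lay above all WT samples, but by 1 position only: counted from the dimmest probe, ATAB2 was number 599 in WT 6 and number 600 in pete1 1. The mean percentile rank was 13.5 ± 2.93 in WT (SD, n = 6) and 24.4 ± 7.19 in pete1, a difference of 10.9 points. Within equal sample numbers the difference was between 4.62 points, for number 1, and 24.2 points, for number 2, and pete1 was the higher in 6 of 6.

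The values of ATAB2 in pete1 samples 1 and 2 stood far apart. Its intensity in sample 2 was 2.51 times that in sample 1, and 4.82% of the probes above 0 in both samples differed by more between them. In the other couples of either genotype the brighter value of ATAB2 was at most 1.06 times the dimmer one. Without pete1 sample 2, the mean rank difference was 8.47 points and the log2 ratio of intensities was -0.39. Without pete1 sample 1, these were 12.3 points and -0.13.

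AT3G29185 lay near the middle of the intensity distribution, and its intensity was lower in every pete1 sample than in any WT sample. In WT its intensity was 0.493 and 0.489 in samples 1 and 2, 0.411 and 0.409 in samples 3 and 4, and 0.462 and 0.509 in samples 5 and 6. In pete1 it was 0.405 and 0.376 in samples 1 and 2, 0.300 and 0.295 in samples 3 and 4, and 0.346 and 0.334 in samples 5 and 6. Samples 3 and 4 were the dimmest in both genotypes. Its mean over 6 samples was 0.462 ± 0.0433 (SD) in WT and 0.343 ± 0.0429 in pete1, a log2 ratio of -0.43, and pete1 was the lower in 6 of 6 sample numbers. Intensities of all pete1 samples lay below those of all WT samples for 32.8% of the 3439 probes, so AT3G29185, the 1 of the 2 genes with this pattern, shared it with a large part of the array.

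The percentile rank of AT3G29185 was nonetheless higher on average in pete1. It was 40.7 and 40.1 in WT 1 and 2, 42.6 and 42.7 in WT 3 and 4, and 44.5 and 49.1 in WT 5 and 6. In pete1 it was 62.0 and 58.2 in samples 1 and 2, 48.5 and 48.0 in samples 3 and 4, and 52.5 and 50.3 in samples 5 and 6. The genotypes overlapped, because WT 6 ranked above pete1 3 and 4. The mean was 43.3 ± 3.24 in WT (SD, n = 6) and 53.2 ± 5.67 in pete1, a difference of 9.99 points, higher in pete1 in 6 of 6 numbers. That difference was 21.3 and 18.1 points for numbers 1 and 2 and between 1.25 and 8.05 points for the other 4 numbers, and without numbers 1 and 2 it was 5.13 points. Ranks of all pete1 samples above those of all WT samples were found for 10.3% of the 3439 probes, and ATAB2 was the 1 of the 2 genes among them. That share includes the probes listed at 0 in every sample. Their tied rank was 2.49 to 3.01 in WT and 3.56 to 4.27 in pete1, where more probes were listed at 0.

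**Figure D2:**
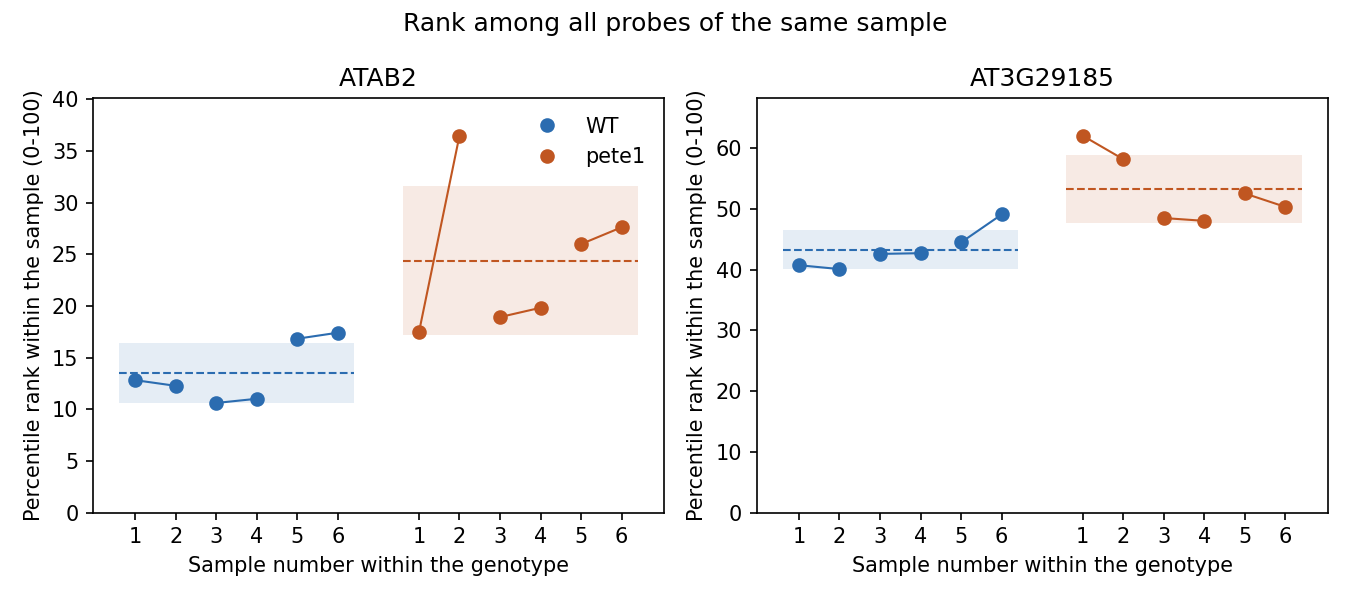
Percentile rank (0 for the dimmest of 3439 probes, 100 for the brightest) of ATAB2 and AT3G29185 in each sample, with lines joining consecutive numbers, dashed means and bands of ± 1 SD. ATAB2 lies between 10.6 and 17.4 in WT and between 17.4 and 36.5 in pete1; AT3G29185 lies between 40.1 and 49.1 in WT and between 48.0 and 62.0 in pete1.

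For both genes, then, the mean intensity was lower and the mean rank higher in pete1. This combination was found for 32.3% of all probes. Relative to the median of its sample, ATAB2 went from 0.277 ± 0.0766 (SD, n = 6) in WT to 0.413 ± 0.153 in pete1 and AT3G29185 from 0.853 ± 0.0724 to 1.12 ± 0.210. AT3G29185 was below the sample median in all 6 WT samples and above it in 4 pete1 samples, those numbered 1, 2, 5 and 6. After quantile normalisation of the log2 intensities, which gives every sample the same distribution, the pete1 minus WT difference was 1.03 on the log2 scale for ATAB2 and 0.38 for AT3G29185. On the log2 scale without normalisation it was -0.27 and -0.44, and over all 3439 probes the median was -0.73 there and -0.01 after normalisation. Which of these scales follows the amount of transcript per cell was not tested.

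**Figure D3:**
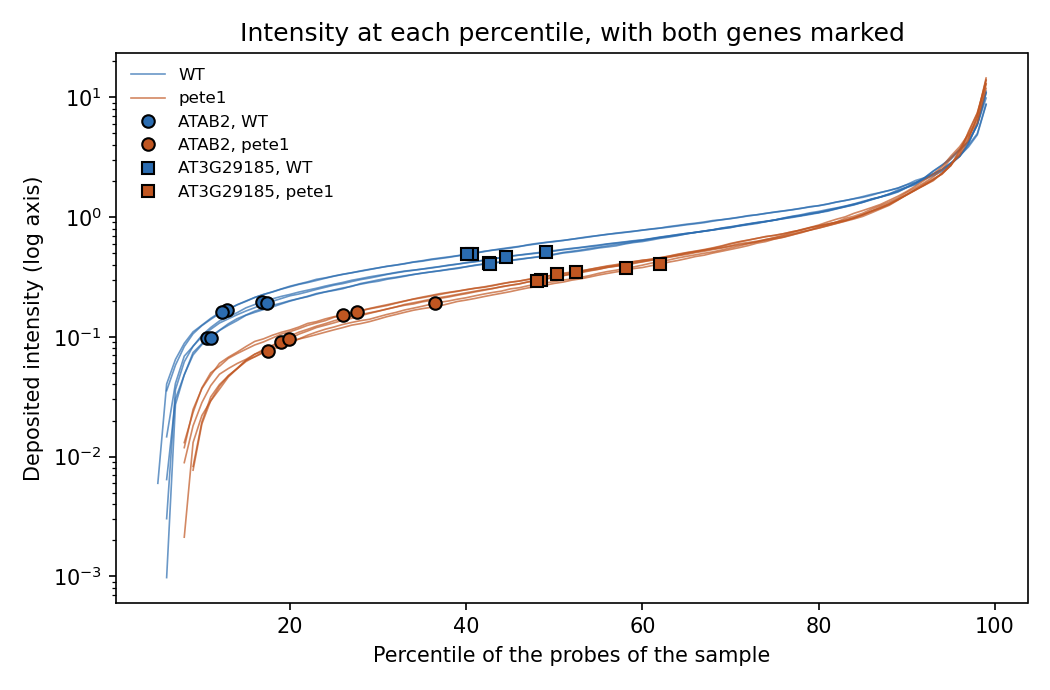
Deposited intensity (log axis) at each percentile of the probes, 1 line per sample, with the values of ATAB2 (circles) and AT3G29185 (squares) marked; intensities of 0 are not drawn. The pete1 lines run below the WT lines through the range that holds both genes, and the pete1 points of AT3G29185, at intensities of 0.295 to 0.405, sit lower than the WT points at 0.409 to 0.509 and, by their mean, further right (53.2 against 43.3), with WT 6 to the right of pete1 3 and 4.

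The rank differences of both genes were moderate among all probes. A larger increase in mean rank was measured for 447 of 3439 probes (13.0%) in the case of ATAB2 and for 505 (14.7%) in the case of AT3G29185. Among the other 691 single-gene probes, 70 exceeded ATAB2 and 78 exceeded AT3G29185. When all probes were ordered by their mean percentile over the 12 samples and divided into 10 groups of equal size, the 343 other probes in the group of ATAB2 had a median rank difference of 0.44 points, with quartiles at -3.84 and 6.81. The 343 other probes in the group of AT3G29185 had a median of -0.35 points, with quartiles at -8.84 and 10.4. ATAB2 thus lay above the upper quartile of the probes of like brightness and AT3G29185 just below it. The mean intensity was lower in pete1 for 93.3% of the probes around ATAB2 and for 89.5% of those around AT3G29185.

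The 2 genes were high in the same samples in WT more than in pete1, a difference that was not tested. Between their intensities, Pearson's r was 0.87 and Spearman's rho 0.60 over the 6 WT samples, and 0.18 and 0.03 over the 6 pete1 samples. Between their percentile ranks, r was 0.75 and rho 0.54 in WT, and 0.19 and 0.03 in pete1. Each set holds 3 couples of like samples, so these are descriptions of few points. In pete1 the couple of samples 1 and 2 held the highest ranks of AT3G29185, whereas for ATAB2 it held both the lowest and the highest rank.

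Other genes of plastid translation and thylakoid assembly were read from 6 lists with 127 loci, of which 15 had a probe of their own. None of the 9 loci for thylakoid protein targeting, the 4 for nuclear ATP synthase subunits or the 12 for plastid translation factors was among these. In the limma fit of all 3439 probes on the normalised log2 scale, 1 of the 15 rose in pete1, 1 fell and 13 did not pass the adjusted threshold of 0.05. By limma none of the 15 passed when couples of consecutive samples were a random block (4.74% of all probes did) or were averaged (0.204%). At an unadjusted limma p under 0.05 were 3 and 1 of the 15, against 679 and 563 of all 3439 probes. After median centring 7 of the 15 passed, all higher in pete1 (19.3% of all probes). Probes listed at 0 in every sample can be among these 7 and the 19.3%. Subtracting the sample medians alone gave them a log2 difference of 0.81. In the reported fit, 21.7% of all probes passed, 10.7% higher and 11.0% lower in pete1. Of the 15 loci 2 (CCB3 and AT5G65220, named after their values were seen) were listed at 0 in every sample. Their difference of 0.81 after median centring came from the sample medians alone, which were lower in every pete1 sample than in any WT sample. The 7 thus cannot be read as a count of detected loci that rose. The median log2 difference was 0.24 over the 15 loci and 0.36 over the other 13, against -0.01 over all probes, those at 0 included. Of these 13, 8 had a higher mean rank and 9 a lower mean intensity in pete1, and 4 had both, as did ATAB2, AT3G29185 and 32.3% of all probes.

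Among 6 measured assembly factors, PSB27, which takes part in the assembly of photosystem II, was the only call. Its intensity lay between 4.41 and 7.47, with a median of 5.03, in WT and between 2.45 and 4.16, with a median of 3.22, in pete1, without overlap. Its rank also went down, from 97.9 ± 0.609 (SD, n = 6) to 95.4 ± 1.2. The log2 difference of PSB27 was -0.97 (limma adjusted p = 0.00698), and it was 0.03 after median centring of the samples. When couples of consecutive samples were a random block, the adjusted p from limma was 0.0600, and when they were averaged it was 0.240. PSB27 was thus lower in pete1 in intensity and in rank, whereas ATAB2 and AT3G29185 were lower in intensity and higher in rank; that contrast between the genes was not tested.

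Among 6 measured plastid ribosomal proteins, AT1G64510 was the only call; with the sample number as a block, AT3G13120, named after its values were seen, passed too (limma adjusted p = 0.0137, and 0.0842 without the block). The intensity of AT1G64510 lay between 0.0974 and 0.188 in WT and between 0.0642 and 0.258 in pete1, and its mean percentile rank was 12.2 ± 3.08 in WT (SD over 6 samples) and 26.2 ± 11.6 in pete1, with overlap on both scales. The log2 fold change of AT1G64510 was 1.44 (limma adjusted p = 0.0323), and -0.05 in the intensities as deposited. The call was lost when couples of consecutive samples were a random block (limma adjusted p = 0.183) or averaged (limma adjusted p = 0.328), and 7 of the 12 fits without a sample retained it. The median rank difference of the 6 ribosomal loci was 9.43 points, against 0.08 points over all probes, those at 0 included. Leaving out AT5G65220, which was at 0 throughout, it was 10.1 points for the other 5 ribosomal loci. AT1G29070, named after its values were seen, was the only one of the 5 to go down, at -1.66 points, and was listed at 0 in 5 samples. The median was -0.55 points for the 5 assembly factors above 0 in any sample (0.25 points for all 6) and 0.11 points for the 3 photosystem subunits. None of the 3 measured photosystem subunits passed. PSBY, a small subunit of photosystem II, had a log2 difference of 0.81 (limma adjusted p = 0.116), and PSBW, another, of 0.39 (limma adjusted p = 0.226).

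In the intensities as deposited the calls of the 15 loci were 1 higher and 4 lower in pete1, against 3.34% and 50.8% of all probes. The higher one was PSBW (limma adjusted p = 0.0109), whose intensity averaged 29.4 ± 7.68 in WT (SD over 6 samples) and 47.1 ± 10.7 in pete1. The lower ones were PSB27 and, named after their values were seen, LPA19, AT1G22700 and AT1G49380, all of them assembly factors of the lists. These calls took the 12 samples as independent. With couples of consecutive samples as a random block, an alternative added after seeing the data, PSB27, LPA19 and AT1G22700 passed (28.0% of all probes were called lower), while PSBW (limma adjusted p = 0.0708) and AT1G49380 (limma adjusted p = 0.0603) did not. With those couples averaged, likewise added, none of the 15 passed limma, against 10.6% of all probes. An unadjusted limma p under 0.05 was found there for 4 of the 15 and for 1390 of all 3439 probes.

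**Figure D4:**
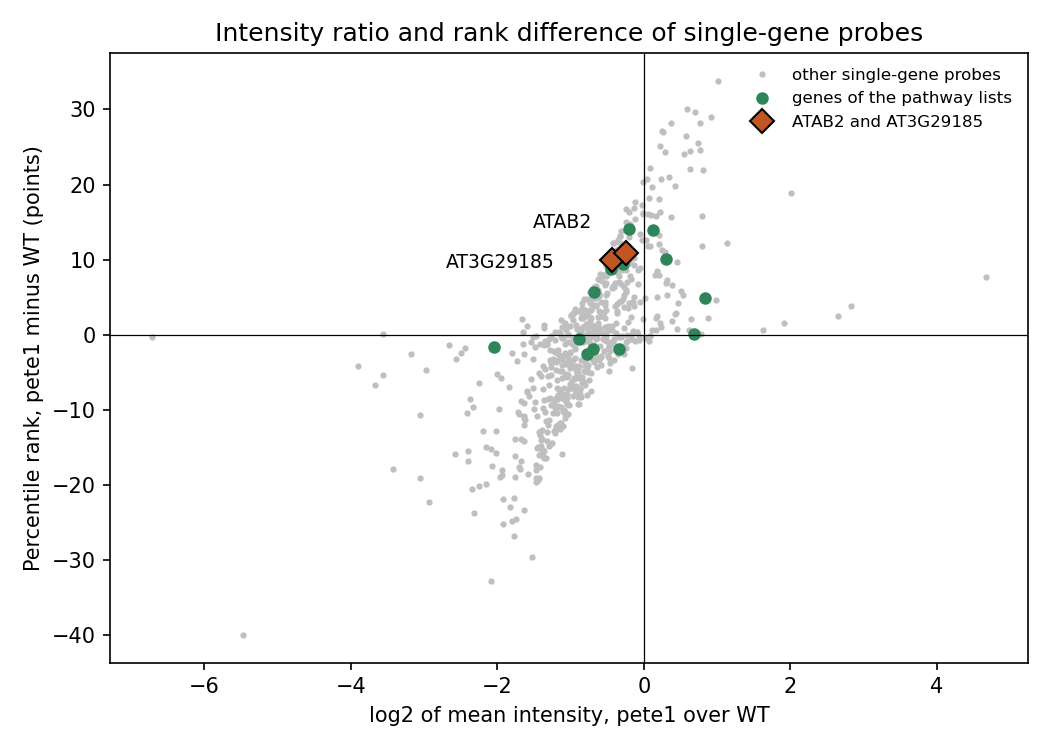
Log2 ratio of mean deposited intensities, pete1 over WT (horizontal), against the difference in mean percentile rank, pete1 minus WT (vertical), for single-gene probes above 0 in both genotypes. Diamonds are ATAB2 and AT3G29185, larger dots the genes of the pathway lists. Both diamonds lie left of 0 and about 10 points above 0, in the upper left quadrant.

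The genes whose rank profile was most like that of each gene were taken from the 594 other single-gene probes above 0 in every sample, by Pearson's r of percentile ranks over the 12 samples. These correlations share the difference between genotypes and the couples of like samples, and are descriptions only. For ATAB2 the 5 nearest were AT5G19210 (r = 0.82), AT1G06730 (0.79), AT5G17840 (0.79), AT5G27860 (0.77) and AT1G48570 (0.77). With each genotype's mean removed, the r of AT5G19210 and AT1G06730 was 0.64 and 0.66, and that of AT5G17840, AT5G27860 and AT1G48570 was 0.42, 0.36 and 0.39. The percentile rank of AT5G19210 averaged 13.1 ± 2.16 in WT (SD, n = 6) and 26.4 ± 10.9 in pete1, and like ATAB2 it was highest in pete1 2. So were AT5G17840 (21.4, against 21.1 in pete1 4), AT5G27860 and AT1G48570, while AT1G06730 was highest in pete1 5.

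For AT3G29185 the 5 nearest were AT1G48570 (r = 0.92), AT2G40980 (0.91), AT3G54210 (0.90), PSBY (0.90) and AT1G50000 (0.89). With each genotype's mean removed, r was 0.80 for AT1G48570, 0.87 for AT2G40980, 0.76 for AT3G54210, 0.84 for PSBY and 0.72 for AT1G50000. AT3G54210, from the list of plastid ribosomal proteins, ranked at 91.8 in both pete1 1 and pete1 2 and between 78.0 and 82.5 in pete1 3 to 6, while its WT ranks were 69.8 to 75.7. PSBY ranked at 97.8 and 97.5 in pete1 1 and 2, between 89.7 and 93.5 in pete1 3 to 6 and between 85.0 and 93.2 in WT. Both genes, like AT3G29185, AT1G48570 and AT2G40980, thus ranked highest in pete1 samples 1 and 2, whereas AT1G50000 was high in pete1 1 only. ATAB2 came 47th in this order and AT3G29185 came 17th in that of ATAB2, with r = 0.69 between them. AT1G48570, which went from a percentile rank of 31.9 ± 3.40 to 60.2 ± 11.3, was the only gene among the 5 nearest of both.

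**Figure D5:**
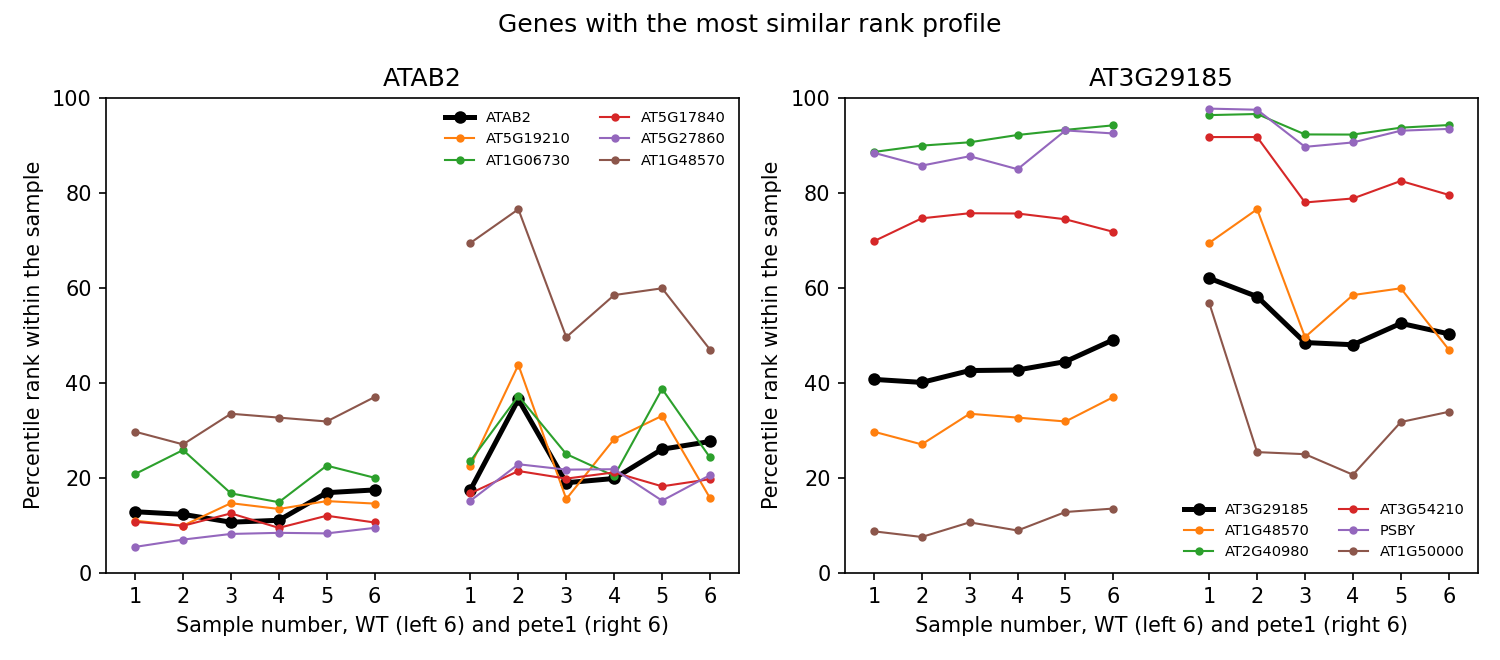
Percentile rank in each sample of ATAB2 (left, thick black line) and AT3G29185 (right, thick black line) with the 5 single-gene probes of most similar profile to each; lines join the points of 1 gene and imply no order of samples. On the right, all genes but AT1G50000 are highest in pete1 samples 1 and 2. On the left, all genes but AT1G06730 peak in pete1 2.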

How the data were processed

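The authors deposited 1 intensity per probe and sample for 3439 probes; the values are linear, none is below 0 and the highest is 100, and no source used here gives the scanner, background correction or scaling. Probes were named from the platform annotation through gene identifiers and the RefSeq gene table of TAIR10.1 (690 of 692 single-gene probes matched a locus). Members and lists were chosen with earlier results of these data known.

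Percentile ranks were taken over all probes of a sample, with ties averaged. For the fit, the smallest positive intensity (4.74e-05) was added, log2 values were quantile normalised, since sample medians differed up to 2.25-fold, and limma 3.58.1 (R 4.3.3, statmod 1.5.0) compared pete1 with WT in a two-sided test. Its p-values were adjusted over all probes by the Benjamini-Hochberg method, and calls were made under 0.05. The fit was tested on simulated data with independent samples. Consecutive numbers here had an estimated correlation of 0.81, so the simulation does not show how the fit performs on such samples. Named genes were both members, listed loci past the threshold (up to 4 per list) or otherwise the 2 of smallest p in a list, and the 5 nearest in rank profile. Deviations from the genotype mean correlated at 0.221 to 0.452 in all 6 couples of equal number, and a fit with number as a block was run as an alternative. No values for unequal numbers are set beside these, so whether the numbers pair the samples was not tested. Other alternatives changed the scaling, offset, filter, probes ranked and samples. The number of arrays limits precision.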

Additional observations from a re-analysis of the deposited data

Results flagged for a closer look

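Of 60 groups of 6 values examined for a sample far from the others, 1 was picked out, where chance picks out about 5% if the values are independent. AT1G50000, among the genes nearest to AT3G29185 in rank profile, had a percentile rank of 56.8 in pete1 1, with the other pete1 samples between 20.6 and 33.9. No value of ATAB2 or AT3G29185 was picked out on any of 4 scales, the 36.5 of ATAB2 in pete1 2 included.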

How the results depend on the processing

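For no change below was the cause tested. The log2 ratio of mean intensities turned from -0.24 to 0.58 for ATAB2 and from -0.43 to 0.39 for AT3G29185 on dividing by the sample median, and to 0.30 and 0.12 on dividing by the 75th percentile. The normalised difference turned from 1.03 to -0.27 for ATAB2 and from 0.38 to -0.44 for AT3G29185 in the intensities as deposited, and was 0.54 for ATAB2 after median centring. The rank differences kept their sign in all alternatives run. Of these, the sample number as a block and the averaging of consecutive numbers could not change a difference of means. The rank difference of AT3G29185 was 5.13 points without numbers 1 and 2, a choice made after seeing the data. Leaving out 1 sample gave rank differences of 8.47 to 12.3 points (ATAB2) and 8.23 to 11.2 (AT3G29185), log2 ratios of -0.39 to -0.13 and -0.49 to -0.39, and normalised differences of 0.89 to 1.16 and 0.31 to 0.44. In the paired analysis (sample number as a block) the mean log2 differences of the deposited intensities were -0.27 and -0.44, as they were without the block.

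Over all probes limma gave 746 calls, 1861 as deposited (1025 with the random block and 363 averaged, both added after seeing the data), 163 with consecutive numbers as a random block, 7 with them averaged, 743 with the sample number as a block and 550 to 722 on leaving out 1 sample. Of the 15 listed loci, 2 passed limma as reported, 5 as deposited (3 with the random block and 0 averaged) and 7 (all higher) after median centring. With the sample number as a block 3 passed, with consecutive numbers averaged or as a random block 0, and on leaving out 1 sample 1 to 3. At an unadjusted limma p under 0.05 were 1 of the 15 averaged and 3 with the random block, against 563 and 679 of all 3439 probes. As deposited and averaged, 4 were, against 1390 of all probes. Loci listed at 0 in every sample can be among the 7. The call of AT1G64510 was lost without WT 1, WT 2, pete1 4, pete1 5 or pete1 6 (limma adjusted p up to 0.0705).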
